A study of Mus musculus with 12 samples.

Results

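Chromatin modifying enzymes, 43 genes that add or remove marks on histones and DNA or move nucleosomes, were followed while C2C12 cells differentiated. C2C12 is an established line of mouse myoblasts, muscle precursors that stop dividing and fuse to myotubes in low serum. The genes were listed by symbol, at a time when earlier results of these data were known. A probe was taken as theirs when its RefSeq accession mapped to the symbol in a reference table of mouse genes. 42 of the 43 had a probe, among 19255 genes named on the array, and no probe was matched to Tet1. 41 were tested, among 13739 named genes with a tested probe. The exception was Crebbp, whose probe lay too close to background. RNA was taken from 3 cultures per stage, labelled as independent experiments, on 12 arrays in all. Proliferating cells were in medium with 10% fetal bovine serum until 80 to 90% confluence, and the other 3 stages were the same cells 2, 5 or 8 days after transfer to 2% horse serum. The labels name no genetic change and no drug, and none of the 12 cultures stayed in growth serum for the same number of days, so serum, density and time cannot be told apart. How far the 3 experiments of a stage were separate is not stated, so the p values speak of variation among these arrays, which may be technical.

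Histone deacetylases remove acetyl groups and, with their corepressors, keep genes silent. Polycomb repressive complex 2 places a repressive methyl mark on histone H3, and DNA methyltransferases write cytosine methylation that is copied to the new strand at each S phase. Remodellers of the SWI/SNF family slide nucleosomes. In muscle, class IIa deacetylases hold back MEF2 factors, Ezh2 silences muscle genes in cycling myoblasts, and SWI/SNF complexes with Smarcd3 open muscle promoters for the myogenic factor MyoD.

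The promoters of 6 members that were lower at day 8 hold an E2F motif, and these stretches are shown because they include most of the members with the lowest day 8 values. Windows of 300 bases, from 250 before to 50 after the annotated start, were taken from RefSeq on build GRCm38.p6 and were found for 39 members. An E2F motif (TTTCCCGC, TTTCGCGC, TTTGCCGC or TTTGGCGC, on either strand) lay in a window of 6 of these 39 members (15.4%), against 2.61% of 27025 genes with windows. These 6 were Dnmt1, Ezh2, Hells, Suv39h1, Suz12 and Uhrf1, and each of them was called lower at day 8. Of the 17 members called lower at day 8, 15 had a window, and 9 of the 15 held no such letters: Sirt6, Eed, Dnmt3b, Suv39h2, Setd7, Setd8, Setdb1, Smarca4 and Prmt5. Genes with several annotated starts have several windows, 3 for Dnmt1, 2 for Suv39h1 and 2 for Uhrf1. Distances below are counted from the start of the window that holds the motif. The letters describe these windows and do not show that a factor was bound. In the stretches of 100 bases below, read 5′ to 3′ on the gene's strand, capitals mark the motif.
Dnmt1 (chr9:20952774-20952873, minus strand, E2F motif 219 bases before the start): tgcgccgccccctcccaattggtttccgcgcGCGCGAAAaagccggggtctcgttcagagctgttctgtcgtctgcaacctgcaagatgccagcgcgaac
Dnmt1 (chr9:20952574-20952673, minus strand, E2F motif 33 bases after the start): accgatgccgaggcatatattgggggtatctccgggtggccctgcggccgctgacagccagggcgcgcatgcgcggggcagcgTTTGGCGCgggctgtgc
Ezh2 (chr6:47594981-47595080, minus strand, E2F motif 3 bases after the start): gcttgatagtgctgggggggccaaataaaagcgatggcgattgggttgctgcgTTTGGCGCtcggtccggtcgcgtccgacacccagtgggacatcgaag
Hells (chr19:38930882-38930981, plus strand, E2F motif 62 bases before the start): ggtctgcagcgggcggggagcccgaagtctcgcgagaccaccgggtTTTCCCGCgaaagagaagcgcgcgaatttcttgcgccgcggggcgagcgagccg
Suv39h1 (chrX:8074372-8074471, minus strand, E2F motif 64 bases before the start): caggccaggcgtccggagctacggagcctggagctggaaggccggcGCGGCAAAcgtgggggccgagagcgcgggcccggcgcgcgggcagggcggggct
Suz12 (chr11:79992856-79992955, plus strand, E2F motif 219 bases before the start): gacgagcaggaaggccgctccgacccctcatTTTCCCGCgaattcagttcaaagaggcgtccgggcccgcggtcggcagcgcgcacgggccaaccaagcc
Uhrf1 (chr17:56304082-56304181, plus strand, E2F motif 185 bases before the start): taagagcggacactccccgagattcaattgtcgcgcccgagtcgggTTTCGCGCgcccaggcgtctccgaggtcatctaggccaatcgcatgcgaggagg
Hdac5 (chr11:102230138-102230237, minus strand, MEF2 motif 20 bases before the start): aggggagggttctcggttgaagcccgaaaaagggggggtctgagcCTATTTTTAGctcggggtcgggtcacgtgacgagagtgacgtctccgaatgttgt
Of the other motifs searched on both strands, CCAAT was in 48.7% of the members and 41.1% of all genes, and the CHR motif (TTTGAA or TTCGAA) was in 28.2% and 21.7%. The E-box (CAGCTG or CACCTG) was in 35.9% of both. The MEF2 motif was in 2.56% of the members, Hdac5 alone, and in 3.70% of all genes. The E2F letters shown overlapped no other motif searched.

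Each array held 37831 usable spots of 37246 probes, of which 56.9% to 69.5% were well above background and 0 were saturated. Values are given as relative signals, the probe's processed intensity divided by the 75th percentile of its array, and changes as log2 fold changes with the standard error of the fit (n = 3 arrays per stage). A change was called with limma at a Benjamini-Hochberg adjusted p under 0.05 over all 22959 tested probes. Signals of different probes are not compared, since probes differ in their response. 40 of the 41 tested members were well above background on all 12 arrays, and Suv39h2 was so on 2 of 3 arrays at day 8. The 12 arrays lay on 3 slides of 4: proliferation with day 2 array 1, day 2 arrays 2 and 3 with day 5 arrays 1 and 2, and day 5 array 3 with day 8. Proliferation and day 8 shared no slide, so a fit with the slide as a block reaches day 8 only through the stages between, with larger errors. 6 of 8 muscle markers rose by day 8 (median log2 fold change 5.93) and 12 of 12 cycling-cell markers fell (median -3.36). Myod1 and Des were the muscle markers not called. Of all tested probes 25.3% were higher and 29.6% lower. With the slide as a block the 6 rises and 11 of the 12 falls were kept, and that of Bub1 was lost (adjusted p = 0.239). The fall of Cdk1 was kept under 20 of its 21 alternative settings (highest adjusted p = 0.551). Fewer expressing cells and less RNA per cell cannot be told apart in RNA of whole cultures.

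By day 8, 12 members were higher and 17 lower than at proliferation, with a median log2 fold change of -0.20. These 29 are 70.7% of the 41, against 54.9% of all tested probes, whose median was -0.12. All tested probes went both ways at day 8 too, with 25.3% called higher and 29.6% lower. Members are counted by gene, on the tested probe of highest mean signal, while these shares count probes, dimmer ones included. At day 2, 11 members were higher and 7 lower (43.9%, against 30.6% of all probes, 18.3% higher and 12.3% lower), with a median of 0.09 beside 0.07. At day 5, 9 were higher and 14 lower (56.1%, against 47.5% of all probes, 23.7% higher and 23.9% lower), with a median of -0.08 beside -0.02. Across the 4 stages, limma's F test called 33 of 41 members and 65.8% of all tested probes. These comparisons share the proliferation arrays. Of all probes called at day 8, 46.1% were higher, against 60.5% with normexp background correction and 79.6% without non-uniform spots, settings that moved the median of all probes from -0.12 to 0.15 and 0.52. With the slide as a block, 9 of the 18 calls at day 2 and 13 of the 23 at day 5 were kept, where 15.5% and 22.7% of all probes were called. At day 8 the block kept 11 of the 29 calls and called 17.4% of all probes. The 11 were Hdac11, Ezh1, Dnmt3a, Smyd1 and Smarca2, higher, and Ezh2, Dnmt1, Uhrf1, Hells, Suv39h1 and Suv39h2, lower. These 11 were also called, in the same direction, under each of the 19 to 21 alternative settings that gave them a value.

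**Figure D1:**
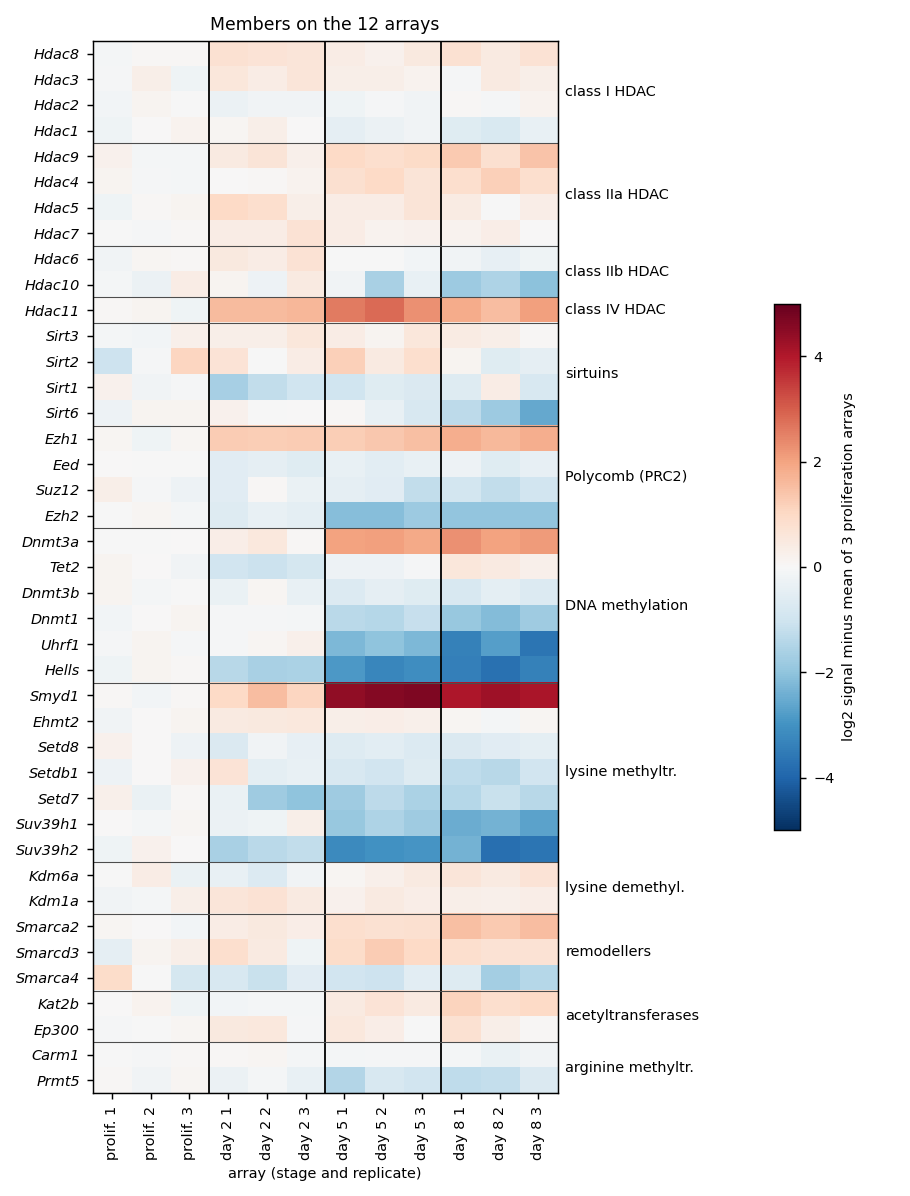
Each row is a member, grouped by role, and each column is 1 of the 12 arrays in 4 stages of 3; colour gives the log2 signal minus the mean of the 3 proliferation arrays (red higher, blue lower). Smyd1, Dnmt3a, Hdac11 and Ezh1 are red and Hells, Uhrf1, Suv39h1 and Suv39h2 are blue on all day 5 and day 8 arrays.

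Among the class I deacetylases, most of which work in nuclear corepressor complexes, Hdac1 fell and Hdac8 rose by day 8, while Hdac2 and Hdac3 were not called there. Hdac1, the catalytic subunit of the NuRD, Sin3 and CoREST complexes, gave relative signals of 72.6, 84.7 and 95.3 at proliferation, 90.5, 101 and 84.9 at day 2, 61.8, 68.1 and 74.1 at day 5 and 55.0, 49.4 and 65.2 at day 8. All day 8 values lay below all proliferation values, and day 5 overlapped with proliferation. At day 8 the log2 fold change was -0.58 ± 0.15 (adjusted p = 0.00848). Hdac8, a class I enzyme that deacetylates cohesin, gave 1.501, 1.67 and 1.72 at proliferation, 2.79, 2.62 and 2.47 at day 2, 2.10, 1.88 and 2.26 at day 5 and 2.78, 2.21 and 2.70 at day 8. It was higher on all later arrays than on any proliferation array, by 0.69 ± 0.13 (adjusted p = 0.00365) at day 2 and 0.65 ± 0.13 (adjusted p = 0.0019) at day 8. Hdac2 changed by 0.06 ± 0.12 and Hdac3, the catalytic subunit of NCoR complexes, by 0.22 ± 0.17 at day 8, without a call. Hdac3 rose at day 2 (0.52 ± 0.17, adjusted p = 0.0394), a call that was lost on removal of array 1 (0.0985) or 3 (0.117) of proliferation, array 1 (0.0961) or 3 (0.108) of day 2, array 1 (0.0554) or 2 (0.0509) of day 5, or array 3 (0.0532) of day 8 (adjusted p in parentheses), and with the slide block (0.16). With the slide block the day 8 calls of Hdac1 (-0.80, adjusted p = 0.192) and Hdac8 (0.60, adjusted p = 0.257) were lost, while the day 2 call of Hdac8 was kept (0.78, adjusted p = 0.0303). Without spots that the scanner software marked as non-uniform, Hdac1 changed sign at day 8 (0.14, adjusted p = 0.801). In that setting the median of all probes at day 8 was 0.52.

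The class IIa deacetylases, which bind MEF2 and shuttle between nucleus and cytoplasm, were all on the higher side at day 8, but 2 of the 4 passed the test. Hdac9 gave relative signals of 1.79, 1.45 and 1.44 at proliferation, 2.12, 2.42 and 1.86 at day 2, 3.13, 2.76 and 3.02 at day 5 and 3.84, 2.70 and 4.18 at day 8. Every day 5 and day 8 array lay above every proliferation array, with log2 fold changes of 0.93 ± 0.18 (adjusted p = 0.00153) at day 5 and 1.18 ± 0.18 (adjusted p = 0.000277) at day 8. Hdac4 gave 2.68, 2.35 and 2.27 at proliferation, 2.49, 2.55 and 2.74 at day 2, 4.23, 4.90 and 3.76 at day 5 and 4.32, 5.55 and 4.39 at day 8. Day 2 overlapped with proliferation (log2 fold change 0.09 ± 0.15, not called). Hdac4 rose between day 2 and day 5 by 0.72 ± 0.15 (adjusted p = 0.00343), to 0.96 ± 0.15 (adjusted p = 0.000265) over proliferation at day 8. Hdac5 gave 9.42, 11.5 and 12.1 at proliferation, 21.6, 19.8 and 13.4 at day 2, 14.2, 14.3 and 16.9 at day 5 and 14.6, 10.9 and 13.9 at day 8. Its highest values were day 2 arrays 1 and 2, with a rise of 0.71 ± 0.20 (adjusted p = 0.0215), and its day 8 values overlapped with proliferation (0.25 ± 0.20, adjusted p = 0.314). The day 2 call was lost on removal of array 1 (0.077) of proliferation or array 1 (0.0755) or 2 (0.0722) of day 2 and kept with the slide block (0.98, adjusted p = 0.0398). Hdac7 rose at day 2 by 0.48 ± 0.14 (adjusted p = 0.0241) and stood at 0.19 ± 0.14 at day 8, uncalled. That rise was lost on removal of array 1 (0.0603) or 2 (0.0744) of proliferation or array 3 (0.0854) of day 2, with normexp background correction (0.304) and with the slide block (0.269). The slide block also took the day 8 calls of Hdac9 (1.14, adjusted p = 0.133) and Hdac4 (1.15, adjusted p = 0.0521), and their day 5 calls (0.92, adjusted p = 0.109, and 0.82, adjusted p = 0.0641), but kept the rise of Hdac4 from day 2 to day 5 (0.78, adjusted p = 0.0136).

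Hdac11, the lone class IV deacetylase, had the highest log2 fold change of the 11 classical deacetylases at each of the 3 later stages. Its relative signals were 1.14, 1.19 and 0.945 at proliferation, 3.24, 3.23 and 3.43 at day 2, 6.55, 7.84 and 5.28 at day 5 and 3.95, 3.17 and 4.49 at day 8. All 9 differentiating arrays exceeded all proliferation arrays, and the day 5 arrays were the highest. In log2 terms Hdac11 rose by 1.60 ± 0.18 (adjusted p = 0.000152) at day 2, 2.57 ± 0.18 (adjusted p = 8.6e-07) at day 5 and 1.82 ± 0.18 (adjusted p = 9.37e-06) at day 8, the last a 3.52-fold difference. From day 5 to day 8 it fell by 0.76 ± 0.18 (adjusted p = 0.0227), a call lost on removal of array 1 (0.076) or 2 (0.0716) of day 5 or array 1 (0.058) or 2 (0.0702) of day 8, and with the slide block (0.317). Hdac10, a class IIb enzyme that deacetylates polyamines, gave 0.945, 0.831 and 1.33 at proliferation, 1.11, 0.856 and 1.37 at day 2, 0.908, 0.329 and 0.780 at day 5 and 0.292, 0.343 and 0.246 at day 8. Its day 8 arrays lay below every proliferation array (-1.80 ± 0.35, adjusted p = 0.00137), day 5 array 2 lay within the day 8 range, and the slide block ended the call (-2.28, adjusted p = 0.104). Hdac6, the cytoplasmic tubulin deacetylase of class IIb, rose by 0.53 ± 0.14 at day 2 (adjusted p = 0.0155) and fell from day 2 to day 5 by 0.59 ± 0.14 (adjusted p = 0.00749). The rise was lost on removal of array 1 (0.0547) of proliferation or array 3 (0.0572) of day 2, with normexp background correction (0.0659) and with the slide block (0.152), and the fall with the slide block (0.051).

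Of 4 sirtuins, the NAD-dependent deacetylases, Sirt6 was called lower at day 8 and none higher. Sirt6, a nuclear enzyme that acts on histone H3, gave relative signals of 0.3002, 0.386 and 0.388 at proliferation, 0.416, 0.347 and 0.365 at day 2, 0.367, 0.273 and 0.203 at day 5 and 0.142, 0.101 and 0.0607 at day 8. The day 8 arrays were the 3 lowest of the 12, and the last step was the 1 called: -1.51 ± 0.30 (adjusted p = 0.0106) from day 5 to day 8, beside -0.46 ± 0.30 from day 2 to day 5. With the slide block that step was not called (-1.09, adjusted p = 0.179). Against proliferation the log2 fold change was -1.89 ± 0.30 (adjusted p = 0.000307), and with the slide block -1.02 (adjusted p = 0.343). Sirt1, which restrains muscle differentiation through MyoD and its acetyltransferase, fell at day 2, with a log2 fold change of -1.29 ± 0.29 (adjusted p = 0.00796), and at day 8 stood at -0.36 ± 0.29, uncalled. The day 2 call of Sirt1 was kept under all 19 settings that gave a value, the slide block among them (-1.65, adjusted p = 0.0299), whereas its day 5 call (-0.78 ± 0.29, adjusted p = 0.0478) was kept under 4 and lost without any 1 of 9 arrays. Sirt3, the mitochondrial sirtuin, was called in none of the comparisons. Sirt2, mostly cytoplasmic, was not called on its brightest probe (-0.31 ± 0.45 at day 8), on which the proliferation arrays ranged from 0.676 to 2.94. Its other probes gave 0.40, not called, and -0.97, with an adjusted p of 0.0197, so the probes of Sirt2 disagreed.

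Around these enzymes, 20 corepressor subunits and other sirtuins were tested. At day 8, 5 were higher and 6 lower, with a median of -0.34. These counts are near the shares of all tested probes, 25.3% higher and 29.6% lower. Gatad2a (1.16 ± 0.20) and Gatad2b (-1.35 ± 0.21), paralogous subunits of the NuRD complex, were called in opposite directions, and each kept its call with the slide block (adjusted p = 0.0384 and 0.0242). The other 9 calls of the list were lost there, among them Ncor1, a partner of Hdac3 (0.76 ± 0.12; 0.136 with the block).

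Polycomb repressive complex 2 showed opposite changes of its alternative catalytic subunits. Ezh2, the form of cycling cells, fell 3.93-fold by day 8, and Ezh1, the form of resting cells, rose 3.37-fold. Ezh2 gave relative signals of 16.4, 17.5 and 15.6 at proliferation, 10.6, 12.8 and 11.7 at day 2, 3.80, 3.76 and 4.68 at day 5 and 4.18, 4.18 and 4.22 at day 8. Every later array lay below every proliferation array, and the day 5 and day 8 arrays overlapped with each other. Its log2 fold change was -0.50 ± 0.13 (adjusted p = 0.0141) at day 2, -1.52 ± 0.13 (adjusted p = 7.88e-06) from day 2 to day 5 and -1.98 ± 0.13 (adjusted p = 4.13e-07) over the course. Ezh1 gave 5.52, 4.48 and 5.51 at proliferation, 12.4, 11.98 and 12.3 at day 2, 12.02, 13.0 and 14.6 at day 5 and 17.9, 15.8 and 18.3 at day 8. The first of its 3 steps alone was called: 1.25 ± 0.13 (adjusted p = 0.000114) at day 2, 0.11 ± 0.13 from day 2 to day 5 and 0.40 ± 0.13 from day 5 to day 8. Both changes at day 8 were kept with the slide block (Ezh2 -2.50, adjusted p = 0.000479; Ezh1 1.57, adjusted p = 0.0106). The day 2 fall of Ezh2 was lost on removal of array 2 (0.0536) of proliferation or array 1 (0.0506) of day 2 and when the gene was taken as the median of its probes (0.0876), and kept with the slide block (-0.64, adjusted p = 0.0311).

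Suz12 and Eed, the core subunits shared by both forms of the complex, were also called lower at day 8. Suz12, needed for its stability, gave relative signals of 18.8, 14.8 and 13.0 at proliferation, 10.3, 16.0 and 12.2 at day 2, 11.2, 10.3 and 6.59 at day 5 and 8.01, 6.45 and 7.94 at day 8. The day 8 arrays lay below all proliferation arrays (-1.05 ± 0.24, adjusted p = 0.0034), and day 2 overlapped. Its day 5 call (-0.75 ± 0.24, adjusted p = 0.0227) was lost on removal of array 1 (0.0841) of proliferation or array 3 (0.0815) of day 5. Its sign changed without non-uniform spots (0.18, 0.765), where the median of all probes at day 5 was 0.80. Eed, which binds the methyl mark, gave 16.2, 15.7 and 15.7 at proliferation, 10.7, 11.7 and 10.4 at day 2, 12.3, 11.0 and 12.1 at day 5 and 13.3, 10.6 and 11.8 at day 8. Its step down came at day 2 (-0.54 ± 0.12, adjusted p = 0.00782; with the slide block -0.56, adjusted p = 0.0761), with 0.11 ± 0.12 and 0.01 ± 0.12 in the following steps and -0.42 ± 0.12 (adjusted p = 0.0129) over the course. With the slide block, Suz12 (-0.77, adjusted p = 0.259) and Eed (-0.52, adjusted p = 0.311) were not called at day 8. Without non-uniform spots Eed changed sign at all 3 later stages (day 8: 0.23, adjusted p = 0.565). In that setting the median of all probes at day 8 was 0.52. The 12 cycling-cell markers had a summed relative signal of 202 to 228 at proliferation, 162 to 190 at day 2, 42.1 to 46.8 at day 5 and 21.8 to 30.2 at day 8. Ezh2 fell beside them up to day 5. From day 5 to day 8 the sum fell further, while Ezh2 changed by 0.05 ± 0.13, uncalled. The relation was not tested.

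**Figure D2:**
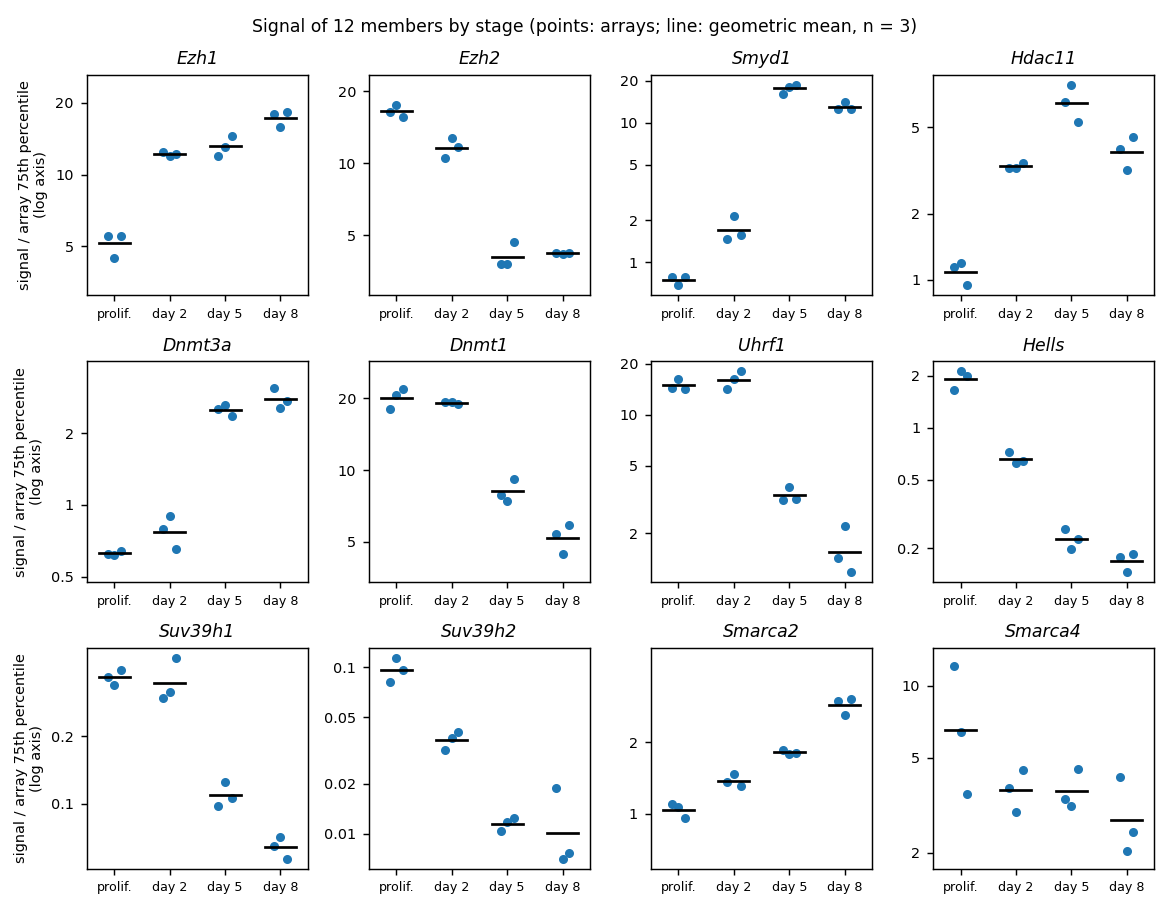
Relative signal (processed intensity over the array's 75th percentile, log axis) of 12 members on each of the 12 arrays, with the geometric mean of each stage as a line. Ezh1, Dnmt3a, Smyd1, Hdac11 and Smarca2 lie above their proliferation arrays at day 8, Ezh2, Dnmt1, Uhrf1, Hells, Suv39h1 and Suv39h2 lie below them, and the Smarca4 points of proliferation range from 3.53 to 12.2.

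Among 23 other Polycomb genes tested, 6 were higher and 7 lower at day 8, with a median of 0.12. These counts are near the shares of all tested probes, 25.3% higher and 29.6% lower. Rbbp7, a histone-binding subunit of complex 2, fell (-0.93 ± 0.16) and was called with the slide block too (adjusted p = 0.0386). Phf19, an accessory subunit, had the lowest value of the list (-2.28 ± 0.33; 0.0743 with the block).

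Of the 6 DNA methylation genes, Uhrf1, Dnmt1, Hells and Dnmt3b were called lower at day 8 and Dnmt3a and Tet2 higher. Dnmt3a and Dnmt3b, both of which set new methylation, were called in opposite directions, and Dnmt3a rose 4.42-fold. Uhrf1, which brings Dnmt1 to newly copied DNA, gave relative signals of 14.3, 16.3 and 14.3 at proliferation, 14.2, 16.2 and 18.04 at day 2, 3.14, 3.73 and 3.17 at day 5 and 1.42, 2.19 and 1.18 at day 8. Day 2 overlapped with proliferation, and every day 5 and day 8 array was below both. The log2 fold change was 0.11 ± 0.21 at day 2 (not called), -2.27 ± 0.21 (adjusted p = 1.33e-05) from day 2 to day 5 and -3.27 ± 0.21 (adjusted p = 3.36e-07) over the course, a 9.67-fold fall. Dnmt1, the maintenance methyltransferase, gave 18.1, 20.7 and 21.9 at proliferation, 19.3, 19.3 and 18.9 at day 2, 7.88, 7.46 and 9.17 at day 5 and 5.37, 4.44 and 5.88 at day 8. Its day 2 arrays lay within the proliferation range (-0.07 ± 0.14, not called). It fell by 1.24 ± 0.14 from day 2 to day 5 (adjusted p = 7.07e-05) and stood at -1.96 ± 0.14 (adjusted p = 9.57e-07) at day 8. Both carry the E2F letters shown above, and a relation to these falls was not tested.

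Hells, a remodeller of the SNF2 family that DNA methylation of repeats depends on, fell already at day 2. Its relative signals were 1.65, 2.12 and 2.01 at proliferation, 0.722, 0.622 and 0.641 at day 2, 0.260, 0.198 and 0.225 at day 5 and 0.177, 0.146 and 0.186 at day 8. Each stage lay wholly below the one before. Hells changed by -1.53 ± 0.16 (adjusted p = 9.28e-05) at day 2, -1.54 ± 0.16 (adjusted p = 2.89e-05) from day 2 to day 5 and -3.50 ± 0.16 (adjusted p = 2.9e-08) over the course, which is 11.4-fold and the lowest value among the 41 members. Dnmt3a gave 0.625, 0.618 and 0.644 at proliferation, 0.790, 0.900 and 0.652 at day 2, 2.54, 2.61 and 2.36 at day 5 and 3.08, 2.56 and 2.72 at day 8. The proliferation arrays were the lowest, and all day 5 and day 8 arrays lay above all day 2 arrays. Its rise came between day 2 and day 5 (1.69 ± 0.14, adjusted p = 6.26e-06), and reached 2.14 ± 0.14 (adjusted p = 4.03e-07) at day 8. With the slide block the day 8 values were -3.43 (adjusted p = 0.00222) for Uhrf1, -2.20 (adjusted p = 0.00277) for Dnmt1, -3.30 (adjusted p = 0.00068) for Hells and 2.31 (adjusted p = 0.00253) for Dnmt3a. All probes of Uhrf1 (4, from -3.41 to -3.14) and of Dnmt3a (2.14 and 2.55) were called in the same direction.

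Dnmt3b ran from 0.195 to 0.231 at proliferation and from 0.119 to 0.148 at day 8, without overlap. The probe shown had the largest of 5 changes, -0.67 ± 0.15 (adjusted p = 0.00373), and the other 4 ranged from -0.58 to -0.30, of which 2 were not called (adjusted p = 0.0685 and 0.0908). On the probe shown, the call did not survive the slide block (-0.83, adjusted p = 0.177) or normexp background correction (-0.29, adjusted p = 0.143). Without non-uniform spots the sign turned (0.09, 0.882), where the median of all probes was 0.52. Tet2, which oxidises methylcytosine, ran from 0.483 to 0.599 at proliferation, 0.258 to 0.299 at day 2, 0.452 to 0.526 at day 5 and 0.655 to 0.800 at day 8. It fell at day 2 (-0.96 ± 0.14, adjusted p = 0.000602), a call kept under all settings including the slide block (-0.95, adjusted p = 0.015), and rose again from day 2 to day 5 (0.77 ± 0.14, adjusted p = 0.00127; with the block 0.71, adjusted p = 0.0175). Its day 8 rise over proliferation (0.42 ± 0.14, adjusted p = 0.0215) was lost on removal of array 3 (0.0787) of proliferation or array 1 (0.0812) of day 8, with normexp background correction (0.12, 0.577) and with the slide block (0.22, adjusted p = 0.703). Of 9 other genes of DNA methylation and demethylation, 3 were higher and 2 lower at day 8 (median 0.21), beside 25.3% and 29.6% of all tested probes. Gadd45a, a stress-response gene linked to demethylation (2.07 ± 0.11), was the only 1 called with the slide block (2.05, adjusted p = 0.00164). Mbd4, a repair glycosylase, was the lowest (-3.11 ± 0.50), and with the block it stood at -0.32 (0.823).

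Of the 7 histone lysine methyltransferases, Smyd1 rose, 5 fell and Ehmt2 was not called at day 8. Smyd1, a methyltransferase of heart and skeletal muscle needed for sarcomere assembly, gave relative signals of 0.784, 0.688 and 0.782 at proliferation, 1.48, 2.17 and 1.57 at day 2, 16.2, 18.1 and 18.9 at day 5 and 12.5, 14.1 and 12.6 at day 8. All later arrays were above proliferation, and the stages from day 5 on were far above day 2. It rose by 1.19 ± 0.16 (adjusted p = 0.000399) at day 2 and by 3.37 ± 0.16 (adjusted p = 1.52e-07) from day 2 to day 5, and was 17.4-fold over proliferation at day 8 (4.12 ± 0.16, adjusted p = 1e-08), the highest value among the 41. The step from day 5 to day 8 (-0.44 ± 0.16) was not called on the probe shown, and was called lower on the other probe of the gene (-0.59, adjusted p = 0.0375). The slide block gave 3.67 (adjusted p = 0.000303), and both probes were called higher at day 8 (4.12 and 4.04). The 8 muscle markers had a summed relative signal of 78.1 to 105.5 at proliferation, 83.5 to 109.6 at day 2, 578 to 641 at day 5 and 375 to 476 at day 8. At day 2, where Smyd1 was already called higher, that sum overlapped with proliferation. Of the 8 markers, though, 6 were called higher and 1 lower at day 2, with a median log2 fold change of 2.18. The relation was not tested.

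The heterochromatin enzymes Suv39h1 and Suv39h2 were both called lower at day 5 and day 8, and Suv39h2 at day 2 as well. Suv39h1 gave relative signals of 0.365, 0.337 and 0.392 at proliferation, 0.294, 0.314 and 0.443 at day 2, 0.0979, 0.125 and 0.107 at day 5 and 0.0651, 0.0713 and 0.0571 at day 8. Day 2 overlapped with proliferation (-0.08 ± 0.18), and day 5 and day 8 lay below it, with log2 fold changes of -1.66 ± 0.18 (adjusted p = 3.9e-05) from day 2 to day 5 and -2.50 ± 0.18 (adjusted p = 7.02e-07) over the course. Suv39h2 gave 0.0818, 0.113 and 0.0963 at proliferation, 0.0317, 0.0374 and 0.0411 at day 2, 0.0104, 0.0118 and 0.0124 at day 5 and 0.0189, 0.00710 and 0.00767 at day 8. It was lower at day 2 already (-1.40 ± 0.32, adjusted p = 0.00782; -1.60, adjusted p = 0.0504 with the slide block; -0.80, 0.0989 without non-uniform spots) and reached -3.25 ± 0.32 (adjusted p = 8.69e-06) at day 8, where 1 of its 3 arrays was not well above background and array 1 stood apart from the others. The day 8 values with the slide block were -2.79 (adjusted p = 0.00217) for Suv39h1 and -3.72 (adjusted p = 0.0119) for Suv39h2. Whether the 2 genes differ in their day 2 change was not tested.

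Setd7, which adds a single methyl group to histone H3 and other proteins and binds MyoD, gave 3.46, 2.30 and 3.03 at proliferation, 2.29, 0.842 and 0.725 at day 2, 0.833, 1.17 and 0.978 at day 5 and 1.08, 1.34 and 1.09 at day 8. Day 2 array 1, which shares the slide of the proliferation arrays, stood beside the lowest of them, while the other day 2 arrays were near the later stages. The log2 fold changes of -1.37 ± 0.37 (adjusted p = 0.0169) at day 2, -1.55 ± 0.37 (adjusted p = 0.00491) at day 5 and -1.31 ± 0.37 (adjusted p = 0.011) at day 8 were lost with the slide block (-0.34, adjusted p = 0.441; 0.00, adjusted p = 0.998; and 0.26, adjusted p = 0.76), the last with the opposite sign. The day 2 call was also lost on removal of array 1 (0.0608) of proliferation or array 2 (0.0645) or 3 (0.0616) of day 2. Within slides, Setd7 stood at -0.34 for day 2 minus proliferation on slide 1, 0.34 for day 5 minus day 2 on slide 2 and 0.26 for day 8 minus day 5 on slide 3.

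Setdb1, which silences retroelements, went from 0.536 to 0.749 at proliferation to 0.248 to 0.333 at day 8 (-1.20 ± 0.28, adjusted p = 0.00426; with the slide block -0.29, adjusted p = 0.677), and at day 5 the block turned its sign (-0.80 ± 0.28, adjusted p = 0.0362, against 0.25, 0.628). That day 5 call was also lost on removal of array 2 (0.0823) or 3 (0.108) of proliferation or array 1 (0.0761) or 2 (0.0999) of day 5. Setd8, a histone H4 methyltransferase active in the cell cycle (Kmt5a in the reference table), fell by 0.59 ± 0.17 at day 8 (adjusted p = 0.0112; with the block -0.89, adjusted p = 0.138; 0.0615 with normexp background correction), and its day 5 fall was kept with the block (-0.62 ± 0.17, adjusted p = 0.0105; -0.98, adjusted p = 0.0398). Ehmt2, a euchromatic methyltransferase that restrains MyoD, rose at day 2 (0.49 ± 0.12, adjusted p = 0.011; with the block 0.46, adjusted p = 0.122) and was at 0.04 ± 0.12 at day 8. Of 21 other genes of heterochromatin and lysine methylation, 4 were higher and 9 lower at day 8, with a median of -0.29. Among all tested probes 25.3% were higher and 29.6% lower. Dot1l, which methylates the histone H3 core (-2.84 ± 0.28), Nsd2, another histone H3 methyltransferase (-1.32 ± 0.17), and the heterochromatin protein Cbx3 (-1.08 ± 0.14) were lower and kept their calls with the slide block (adjusted p = 0.0296, 0.0206 and 0.0169), and the other 10 calls were lost there. Nsd2 was kept under 20 of its 21 alternatives (highest adjusted p = 0.117), and Dot1l and Cbx3 under all of theirs.

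Of the lysine demethylases, Kdm6a, which removes the Polycomb mark, was called higher at day 8 and Kdm1a was not. Kdm6a gave relative signals of 1.81, 2.35 and 1.44 at proliferation, 1.40, 1.13 and 1.60 at day 2, 1.94, 2.18 and 2.49 at day 5 and 2.81, 2.48 and 2.91 at day 8. The day 8 arrays lay above all proliferation arrays, with day 2 array 2 the lowest of the 12. The rise at day 8 (0.58 ± 0.20, adjusted p = 0.0288) was lost on removal of array 1 (0.0624) or 3 (0.111) of proliferation or array 1 (0.073) or 3 (0.0822) of day 8, and with the slide block (0.36, adjusted p = 0.671). Kdm1a, which removes methyl groups from histone H3 in the CoREST complex, rose at day 2 (0.60 ± 0.14, adjusted p = 0.0105; with the block 0.62, adjusted p = 0.0911) and stood at 0.29 ± 0.14 at day 8. Outside the 43, 13 further demethylases were tested, and 10 were higher and 1 lower at day 8, with a median of 0.87. Among all tested probes 25.3% were higher and 29.6% lower. The 5 that were called under every setting, the slide block included, were Kdm5b (2.17 ± 0.15), Kdm7a (2.04 ± 0.24), Kdm6b (1.63 ± 0.19), Kdm4b (1.62 ± 0.15) and Kdm5a (1.22 ± 0.17). Kdm6b acts on the same mark as Kdm6a. Kdm1b, a relative of Kdm1a, was the lower gene (-0.93 ± 0.16; 0.396 with the block).

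Among the remodellers, the alternative ATPases of SWI/SNF moved in opposite directions, but only the rise of Smarca2 was kept under every setting. Smarca2, the Brm ATPase, gave relative signals of 1.103, 1.07 and 0.958 at proliferation, 1.36, 1.47 and 1.30 at day 2, 1.85, 1.78 and 1.80 at day 5 and 2.96, 2.59 and 3.04 at day 8. Each stage lay wholly above the one before. It rose by 1.46 ± 0.12 (adjusted p = 2.07e-06) over the course, with 0.40 ± 0.12, 0.40 ± 0.12 and 0.66 ± 0.12 in the 3 steps. The course was called with the slide block (1.44, adjusted p = 0.0123) and none of the 3 steps was (adjusted p = 0.186, 0.117 and 0.0899). The first step was also lost on removal of array 2 (0.0574) or 3 (0.0735) of proliferation or array 1 (0.0535) or 2 (0.0829) of day 2. The step from day 2 to day 5 was lost on removal of array 1 (0.0644) or 3 (0.0825) of day 2 or array 1 (0.0771), 2 (0.0507) or 3 (0.0596) of day 5.

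Smarca4, the Brg1 ATPase, gave 12.2, 6.398 and 3.53 at proliferation, 3.71, 2.97 and 4.43 at day 2, 3.35, 3.15 and 4.48 at day 5 and 4.15, 2.02 and 2.44 at day 8. The proliferation arrays spread more than 3-fold, and day 8 array 1 lay above proliferation array 3, so the groups overlapped. The log2 fold change of -1.25 ± 0.41 (adjusted p = 0.0228) was lost on removal of array 1 (0.0816) or 2 (0.0505) of proliferation or array 2 (0.0843) or 3 (0.0659) of day 8, with normexp background correction (0.0588) and with the slide block (-1.68, adjusted p = 0.298). Without proliferation array 1 it came to -0.80. Smarcd3, the muscle subunit Baf60c, gave 0.844, 1.27 and 1.41 at proliferation, 2.05, 1.57 and 0.999 at day 2, 2.19, 2.75 and 2.30 at day 5 and 2.04, 1.89 and 1.92 at day 8. Its day 5 arrays were all above proliferation (1.06 ± 0.26, adjusted p = 0.00597), a call kept under all settings and larger with the slide block (1.81, adjusted p = 0.0165). At day 8 the rise was 0.76 ± 0.26 (adjusted p = 0.0276), lost on removal of array 1 (0.105) of proliferation or array 1 (0.0715), 2 (0.0551) or 3 (0.059) of day 8, and 1.57 (0.0825) with the block. Of 15 other SWI/SNF subunits, 1 was higher and 7 lower at day 8 (median -0.49), beside 25.3% and 29.6% of all tested probes. The core subunit Smarcc2 rose (1.11 ± 0.15) and Dpf1, a subunit known from neurons, fell (-1.37 ± 0.17), both with the block too (adjusted p = 0.0175 and 0.0258). Dpf1 was kept under 20 of its 21 alternatives (highest adjusted p = 0.0894), and Smarcc2 under all of its own. Smarcd2 went from -2.30 ± 0.35 to -0.82 with the block (0.338), and Arid1a from -1.98 ± 0.32 to -1.97 (0.0869), both without a call there.

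**Figure D3:**
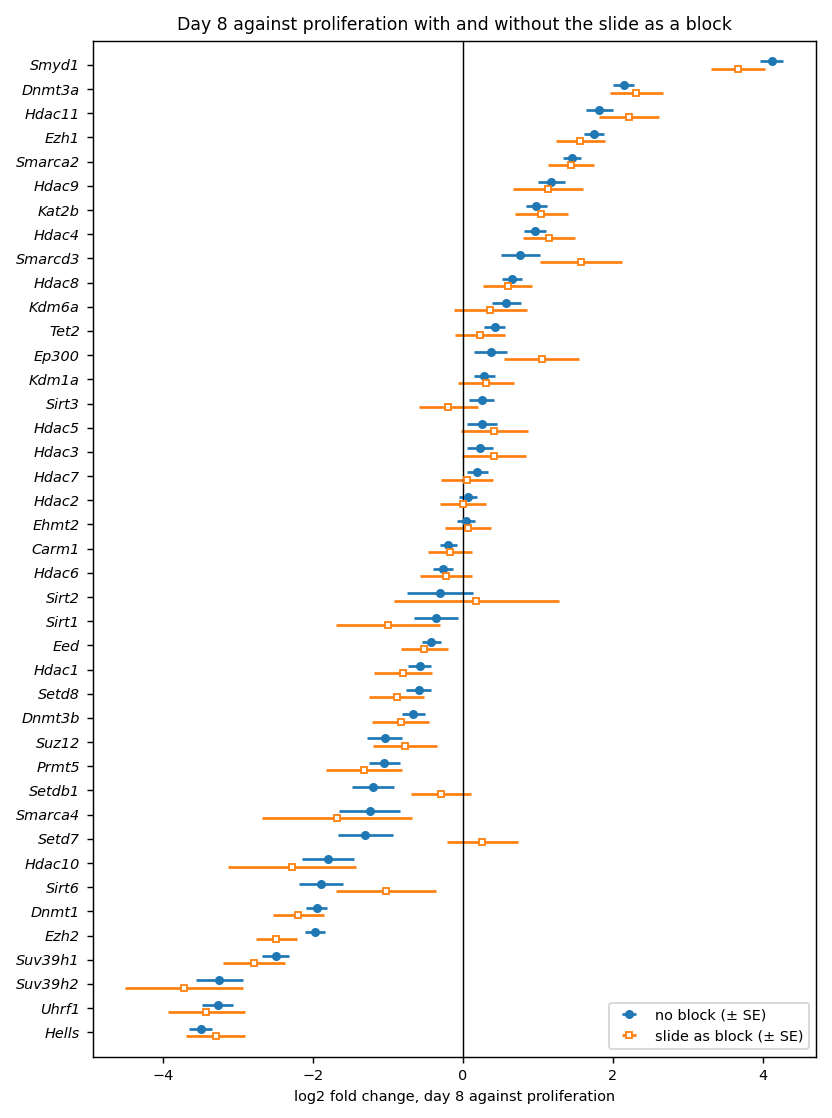
Log2 fold change of the 41 tested members, day 8 against proliferation, with standard errors, without (filled circles) and with (open squares) the slide as a block. Errors are wider with the block, and Setd7 crosses from -1.31 to 0.26.

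Of the acetyltransferases, Kat2b (Pcaf), which acetylates histones and MyoD, rose, Ep300 was not called and Crebbp was not tested. Kat2b gave relative signals of 3.74, 4.11 and 3.19 at proliferation, 3.30, 3.46 and 3.40 at day 2, 4.96, 5.84 and 4.94 at day 5 and 7.85, 6.47 and 7.39 at day 8. Day 2 overlapped with proliferation, and day 5 and day 8 each lay wholly above the stage before. The rise was 0.98 ± 0.14 (adjusted p = 0.000136) over the course and 0.63 ± 0.14 (adjusted p = 0.00514) from day 2 to day 5, and the slide block gave 1.05 (adjusted p = 0.0708) and 0.65 (adjusted p = 0.0311). The last step (0.46 ± 0.14, adjusted p = 0.0497) was kept under 4 of its settings, and left the calls when any 1 of 11 arrays was omitted. Ep300, the other main coactivator acetyltransferase measured, was at 0.37 ± 0.22 (adjusted p = 0.177) with overlapping arrays. Crebbp, its close relative, was well above background on 2 arrays at day 5, on 1 at day 8 and on 0 at the other stages. Of 10 other acetyltransferases, 4 were higher and 2 lower at day 8 (median 0.10), beside 25.3% and 29.6% of all tested probes. Hat1, which acetylates newly made histones (-2.29 ± 0.20), and Kat2a, the paralogue of Kat2b (-1.04 ± 0.11), fell, and Kat6b rose (1.26 ± 0.20), each also with the slide block (0.0107, 0.049 and 0.0485).

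Of the arginine methyltransferases, Prmt5 fell and Carm1 was not called. Prmt5, which makes symmetric dimethylarginine on histones and splicing proteins, gave relative signals of 44.1, 37.2 and 45.2 at proliferation, 33.9, 39.6 and 32.8 at day 2, 15.1, 24.2 and 21.7 at day 5 and 17.6, 18.6 and 25.5 at day 8. All day 5 and day 8 arrays lay below all earlier ones, with log2 fold changes of -0.83 ± 0.20 (adjusted p = 0.0101) from day 2 to day 5 and -1.05 ± 0.20 (adjusted p = 0.00127) at day 8. The slide block kept the step to day 5 (-0.92, adjusted p = 0.0362) and not the day 8 call (-1.32, adjusted p = 0.113), which was also lost without non-uniform spots (-0.65, 0.422). Carm1, a coactivator of MEF2, was at -0.20 ± 0.11 (adjusted p = 0.155). 4 of 5 other enzymes of the family were lower at day 8 and none higher, with a median of -0.95. Among all tested probes 29.6% were lower and 25.3% higher, with a median of -0.12. They were Prmt1 (-0.95 ± 0.16), Prmt3 (-2.45 ± 0.37), Prmt6 (-2.25 ± 0.35) and Prmt7 (-0.83 ± 0.23), and the slide block called none of them (adjusted p = 0.147 to 0.327).

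**Figure D4:**
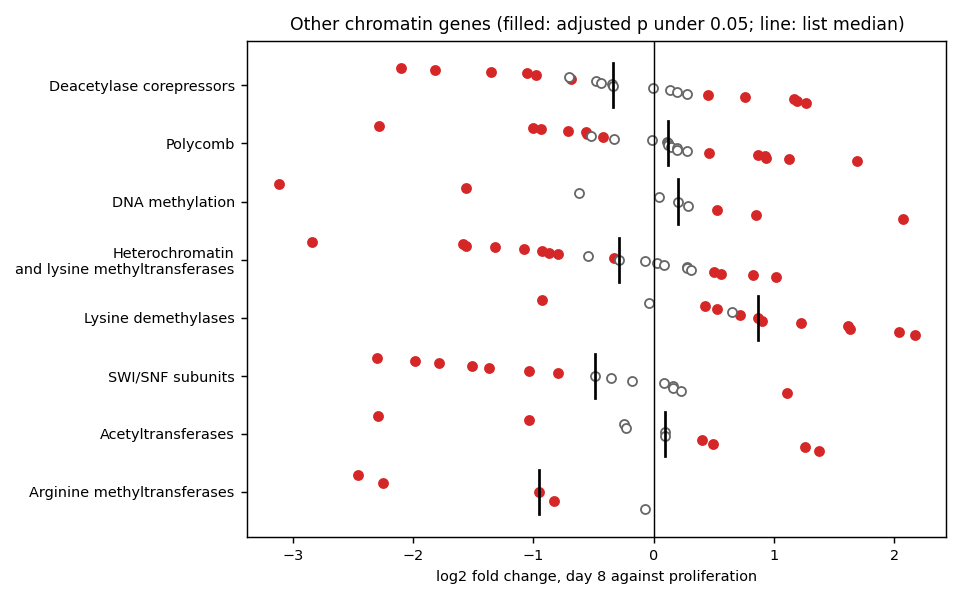
Log2 fold change, day 8 against proliferation, of tested chromatin genes outside the 43, by list; filled points passed an adjusted p of 0.05 in limma, open points did not, and lines are list medians. The lysine demethylases have the highest median (0.87) and the arginine methyltransferases the lowest (-0.95).

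Set in order of time, 16 members were called between day 2 and day 5 and 8 between day 5 and day 8. From day 2 to day 5, 8 members were higher and 8 lower (39.0%, against 30.1% of all probes, 14.3% higher and 15.7% lower), with a median of -0.18 beside -0.09. From day 5 to day 8, 3 were higher and 5 lower (19.5%, against 12.7% of all probes, 5.88% higher and 6.84% lower), with a median of -0.08 for members and for all probes. The 5 lower were Sirt6, Uhrf1, Suv39h1, Hdac11 and Dnmt1, and the 3 higher were Smarca2, Tet2 and Kat2b. The step of Dnmt1 was lost on removal of array 1 (0.053) of day 5 or array 2 (0.0513) of day 8, that of Suv39h1 on removal of array 2 (0.0653) of day 5 or array 1 (0.0556) or 3 (0.0706) of day 8, and that of Tet2 on removal of array 1 (0.0724) or 2 (0.0563) of day 5 or array 1 (0.0672) of day 8. The slide block called 0 of these 8 and 3.21% of all probes, against 13 of the 16 at day 5 over day 2 and 22.1%. Within slide 2, which holds 2 day 2 and 2 day 5 arrays, the step from day 2 to day 5 was -2.32 for Uhrf1, -1.69 for Ezh2, -1.32 for Dnmt1, 1.75 for Dnmt3a and 3.22 for Smyd1. Within slide 3, day 8 minus day 5 was -1.04 for Uhrf1, -0.82 for Dnmt1 and 0.67 for Smarca2, from a single day 5 array. The comparisons share the day 5 arrays, so their values stand side by side here. Of the 12 cycling-cell markers, 3 were called lower at day 2 (median -0.41), 11 from day 2 to day 5 (median -2.19) and 4 from day 5 to day 8 (median -0.70), beside the members that fell, a relation that was not tested.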

How the data were processed

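RNA of C2C12 cultures was hybridised to 1-colour Agilent arrays. The deposited values are processed spot intensities in arbitrary units, made with Agilent Feature Extraction (version 10.5.1.1 in the submitters' notes on processing). The file headers name the array design's genome build, and no coordinates were taken from it. Here control spots and population outliers were left out, spots of a probe were averaged, log2 was taken and the array's 75th percentile subtracted. Of 37246 probes, 22959 were tested, those that 1 stage or more had well above background in each of its 3 arrays. limma 3.58.1 in R 4.3.3 fitted a mean per stage to the 12 arrays with Benjamini-Hochberg adjustment over all tested probes and a threshold of 0.05. The steps were tested on simulated data. A gene stands by its tested probe of highest mean signal. For 14 members with several tested probes, 0 had probes called in opposite directions at day 8. The slide was read from array barcodes. The files used hold no mean signal, so normexp (offset 50) used median signals and their background. Per-array values are printed for the most changed members of each role, by a rule. The members, gene lists and tests were chosen with earlier results of these data known. The number of arrays limits the precision.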

Additional observations from a re-analysis of the deposited data

How the results depend on the processing

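Across 21 alternatives, 4055 log2 fold changes of members were recomputed: 3803 kept their side of the threshold and, where called, their direction (91 values, uncalled both ways, changed sign), 186 lost a call, 56 gained one and 10 called values changed sign. Without non-uniform spots the sign turned for Eed (0.0595 at day 2, 0.36 at day 5 and 0.23 at day 8), Suz12 (0.18 at day 5), Dnmt3b (0.13 at day 5 and 0.095 at day 8) and Hdac1 (0.14 at day 8), and with the slide block for Setd7 (0.0019 at day 5 and 0.26 at day 8) and Setdb1 (0.25 at day 5). Without non-uniform spots the median of all probes was 0.73 at day 2, 0.80 at day 5 and 0.52 at day 8. Non-uniform spots are 19.8 to 28.3% of an array, and only 15 members kept a day 8 value without them, so fewer genes were tested. Then 4 members were called higher and 1 lower at day 2 (11 and 7 with all spots), 3 lower at day 5 (14), 5 higher and 4 lower at day 8 (12 and 17), 2 and 3 from day 2 to day 5 (8 and 8), 0 and 1 from day 5 to day 8 (3 and 5) and 9 by the F test (33). Among all probes, 4862 were then called higher and 181 lower at day 2 (4212 and 2817 with all spots). At day 5 the probes called were 6034 and 781 (5440 and 5477), and at day 8, 4949 and 1269 (5809 and 6789). From day 2 to day 5 they were 1383 and 901 (3292 and 3616), and from day 5 to day 8, 117 and 385 (1349 and 1571). With the percentile still taken from all spots, a choice made after seeing the data, the member counts were 3 and 3 at day 2, 4 and 4 at day 5, 4 and 6 at day 8, 3 and 3, 0 and 2, and 11. Among all probes, 2366 were higher and 1100 lower at day 2, 3069 and 2658 at day 5, and 3400 and 3653 at day 8. The later steps gave 1725 and 1935, and 693 and 724. There the median of all probes was 0.14 at day 2, 0.02 at day 5 and -0.12 at day 8, and no called value changed sign. The slide block left 5 members higher and 4 lower at day 2, 7 lower at day 5, 5 higher and 6 lower at day 8, 0 and 0 from day 5 to day 8, and 17 by the F test. The cause was not tested. Among all probes the block called 2236 higher and 1314 lower at day 2 and 2333 lower at day 5. It called 2258 higher and 1735 lower at day 8, and 436 and 301 from day 5 to day 8. With no filter on dim probes 7 members were higher at day 2, and 1 higher and 2 lower from day 5 to day 8, where normexp gave 1 higher and quantile normalisation 5. Without the filter, 2952 of 37246 probes were higher at day 2, and 606 were higher and 701 lower from day 5 to day 8. In that last step normexp called 991 of all probes higher and quantile normalisation 1608. Of all probes called at day 2, 59.9% were higher, against 73.0% with normexp and 96.4% without non-uniform spots. On leaving out 1 array at a time, the members higher at day 2 numbered 7 (without proliferation array 1) to 12. Of all probes, 3121 (without that array) to 4471 were higher at day 2. From day 5 to day 8 the members higher numbered 1 to 3, with 1 without day 5 array 1 or 2 or day 8 array 1. Members lower in that step numbered 3 to 6, with 3 without day 5 array 1 or day 8 array 1 or 2. Of all probes, 578 to 1491 were higher there and 551 to 2301 lower, both fewest without day 5 array 1. Replicate numbers were not treated as pairs (correlations of same-numbered deviations from -0.156 to 0.243, of which 5 of 18 exceeded 0.1). With 3 arrays per stage over 3 slides, these values cannot settle whether same-numbered cultures were related. The replicate block called 12 members higher and 17 lower at day 8, and 5694 of all probes higher and 6780 lower.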

Other observations

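Markers of other cells gave these values at day 8 against proliferation, with limma's call over all tested probes. Of 4 genes of reserve or satellite cells, the undifferentiated cells that remain beside myotubes, Cd34 (1.42) and Pax7 (1.03) rose, Myf5 fell by 0.47 and Sdc4 was not called (-0.31). The rises of Cd34 and Pax7 were kept under all alternatives, the slide block included, and the fall of Myf5 was lost with it (-0.69, adjusted p = 0.21). Of the osteoblast markers 3 of 5 were tested and Bglap was lower (-1.06, and adjusted p = 0.117 with the slide block), and of 4 adipocyte markers Pparg alone was tested and was lower (-1.54). Of the macrophage markers Csf1r alone was tested and was higher (1.28, and adjusted p = 0.074 with the slide block), with a summed relative signal of the list from 0.0597 to 0.194 over all arrays. Of the endothelial markers Kdr (-3.18) and Cdh5 (-2.17, and adjusted p = 0.168 with the slide block) were lower and Tek (1.97) higher, with a sum from 0.222 to 0.303 at proliferation and from 0.498 to 0.639 at day 8. Of the neural markers Tubb3 (-1.68) and Snap25 (-0.86) were lower, and neither was called with the slide block (adjusted p = 0.104 and 0.585). Their part in the members' changes was not tested.

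Crebbp, the acetyltransferase left untested, gave log2 signals relative to the 75th percentile of -6.29, -7.83 and -8.12 at proliferation, -6.89, -8.77 and -7.87 at day 2, -7.02, -6.67 and -7.88 at day 5 and -7.16, -7.11 and -7.42 at day 8.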
